A study of Mus musculus with 2 samples.

Results

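Forkhead transcription factors bind DNA through a winged-helix domain, and a subset of the family marks embryonic mesenchyme. In the mouse, Foxf1 and Foxl1 are known targets of Hedgehog signals that epithelia send to the mesenchyme around them, and Foxf1 is known to act between Sonic hedgehog and Bmp4 in the mesenchyme that forms ureteric smooth muscle. The 9 genes described here are Foxf1, Foxf2, Foxl1, Foxc1, Foxc2, Foxd1, Foxd2, Foxp1 and Foxp2. They were chosen by name, as all gene spots that carry one of these symbols in the scanner files, and all 9 were measured, by 16 probes with 4 spots each (64 spots on each array). They stand among 22070 genes tested, and 35 other genes of the forkhead family are on the array.

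Fgfr1/2cDKO ureters carried 1 Cre allele at Tbx18, Tbx18(cre/+), with both copies of Fgfr1(fl/fl) and of Fgfr2(fl/fl) floxed, and control RNA came from ureters labelled Fgfr1(fl/?);Fgfr2(fl/?), both on the NMRI strain. Ureters of both groups were taken at E15.5 and kept 6 days in culture on transwell membranes. Cre driven from the Tbx18 locus acts in the ureteric mesenchyme, and the labels list no Cre for the controls, so loss of the receptors and presence of the Cre allele cannot be told apart. There were 2 two-colour arrays, each holding 1 Fgfr1/2cDKO and 1 control RNA. Array 1 was labelled male, with the Fgfr1/2cDKO RNA in Cy5, and array 2 female, with it in Cy3, so replicate, sex label and dye cannot be told apart. The number of arrays limits the precision, and nothing in the labels says whether RNAs came from separate litters or pools. The p-values thus rest only on spread between these arrays, which may be technical. Most of that spread is pooled over all genes by limma, with 7.45 prior degrees of freedom against 1 from the gene itself. A gene that differs much between arrays can therefore still pass.

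Below, a signal is the normalised log2 brightness of a spot in 1 RNA, and a ratio is log2 of Fgfr1/2cDKO over control, given as mean ± SD over both arrays. Brightness depends on the probe, so signals are compared between RNAs for 1 probe and never between genes. Markers of the labelled tissue were detected: 10 of 10 urothelial and epithelial, 10 of 10 mesenchymal and 8 of 8 smooth muscle genes were well above background in all 4 RNAs. The same held for 20681 of all 22070 genes tested, so these counts do not identify the tissue. Of the targeted genes, Fgfr1 had a ratio of -0.33 ± 0.15 (SD, n = 2; limma adjusted p = 0.134) and Fgfr2 was higher, at 0.56 ± 0.02 (SD, n = 2; limma adjusted p = 0.0309). The Fgfr2 call was lost in 4 of 11 other settings, listed in the closing section. The sources used here do not name the deleted exons, so these probes check neither genotype. Tbx18 had a ratio of 0.19 ± 0.06.

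Foxl1, Foxf1 and Foxc1 rose in Fgfr1/2cDKO RNA, by about 1.5 to 1.6 fold, and none of the 9 genes fell. The other 6 did not pass an adjusted p of 0.05 in limma, and 5 of those 6 had ratios above 0 on both arrays. Against these 3 of 9, the fit called 3.79% of all genes, 1.76% higher and 2.03% lower. At an unadjusted p below 0.05, 6 of the 9 genes were higher and none lower. Of all 22070 genes, 4955 passed in either direction, and higher and lower ones were not counted apart, so there is no like share for all genes. Lists described below also leaned upwards at this threshold. Other forkhead genes had 5 of 22 higher and 2 lower, and Hedgehog genes 3 of 17 higher and 1 lower. Genes of the ureteric smooth muscle programme had 7 of 18 higher and none lower. The median ratio of the 9 genes was 0.28, with 0.15 on array 1 and 0.44 on array 2, against -0.02 over all genes tested. On both arrays 8 of the 9 genes lay above 0, as did 30.5% of all genes. All 9 genes were well above background in all 4 RNAs, so none was tested only because 1 group was bright. In bulk tissue, more cells of a type and more RNA per cell cannot be told apart.

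Some of the sequences behind these measurements are shown, from genes whose probes did not all give the same ratio. The probes were not picked by their ratios, and the brightest Foxf1 and Foxp2 probes are not among them. The first is the dimmer of the Foxf1 probes, which did not pass. The next is the brightest Foxp1 probe, and the last ones are the Foxp1 and Foxp2 probes whose match is split over more genome than the probe is long. They are the probe sequences of the scanner files in lower case, with no base marked.
Foxf1, chr8:123610681-123610740 (mm9, plus strand): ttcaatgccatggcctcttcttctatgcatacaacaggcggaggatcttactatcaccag
Foxp1, chr6:98880084-98880143 (mm9, minus strand): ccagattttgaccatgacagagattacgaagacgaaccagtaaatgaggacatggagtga
Foxp1, chr6:98885382-98889719 (mm9, minus strand): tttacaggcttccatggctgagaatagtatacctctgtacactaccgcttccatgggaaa
Foxp2, chr6:15363873-15365044 (mm9, plus strand): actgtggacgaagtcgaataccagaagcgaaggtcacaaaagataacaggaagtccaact

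Foxf1, the mesenchymal factor downstream of Hedgehog signals, had signals of 13.58 and 14.50 in Fgfr1/2cDKO RNA on arrays 1 and 2, against 13.20 and 13.57 in control RNA. The groups did not overlap, but the lower Fgfr1/2cDKO value stood only just above the higher control value. The ratio was 0.39 on array 1 and 0.93 on array 2, with a mean of 0.66 ± 0.38 (SD, n = 2; limma adjusted p = 0.0443), a 1.58-fold difference. Array 2 thus carried most of this rise, and without it the ratio was 0.39. That probe lies at chr8:123611944-123612003 (mm9). The probe shown above lies 1263 bases upstream of it, within the same gene by the file's annotation. It had signals of 7.51 and 8.13 in Fgfr1/2cDKO RNA, against 7.44 and 7.70 in control RNA, so its groups overlapped. Its ratio of 0.25 ± 0.26 (SD, n = 2) went the same way on both arrays, at 0.07 and 0.44, and did not pass when all 28915 tested probes were fitted (limma adjusted p = 0.239). In that fit 5.09% of probes were called. With the mean of both probes in place of the brighter one, Foxf1 had a ratio of 0.46 and no longer passed (limma adjusted p = 0.0770).

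Foxl1, a factor of the mesenchyme directly below epithelia such as that of the gut, had signals of 10.49 and 11.19 in Fgfr1/2cDKO RNA, against 9.92 and 10.38 in control RNA. Both Fgfr1/2cDKO values lay above both control values. The ratio was 0.57 on array 1 and 0.81 on array 2, with a mean of 0.69 ± 0.17 (SD, n = 2; limma adjusted p = 0.0228), which is 1.61-fold. Its probe lies at chr8:123654402-123654461 (mm9). Among all genes tested, 0.417% had a higher mean ratio than Foxl1 and 0.530% a higher one than Foxf1.

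Foxf2, the paralogue of Foxf1 known from gut and palate mesenchyme and from pericytes, had signals of 8.63 and 9.68 in Fgfr1/2cDKO RNA, against 8.48 and 9.07 in control RNA. These groups overlapped, since the arrays differed more than the genotypes. Its ratio was 0.15 on array 1 and 0.60 on array 2, with a mean of 0.38 ± 0.32 (SD, n = 2; limma adjusted p = 0.145). Its probe lies at chr13:31723139-31723198 (mm9).

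**Figure D1:**
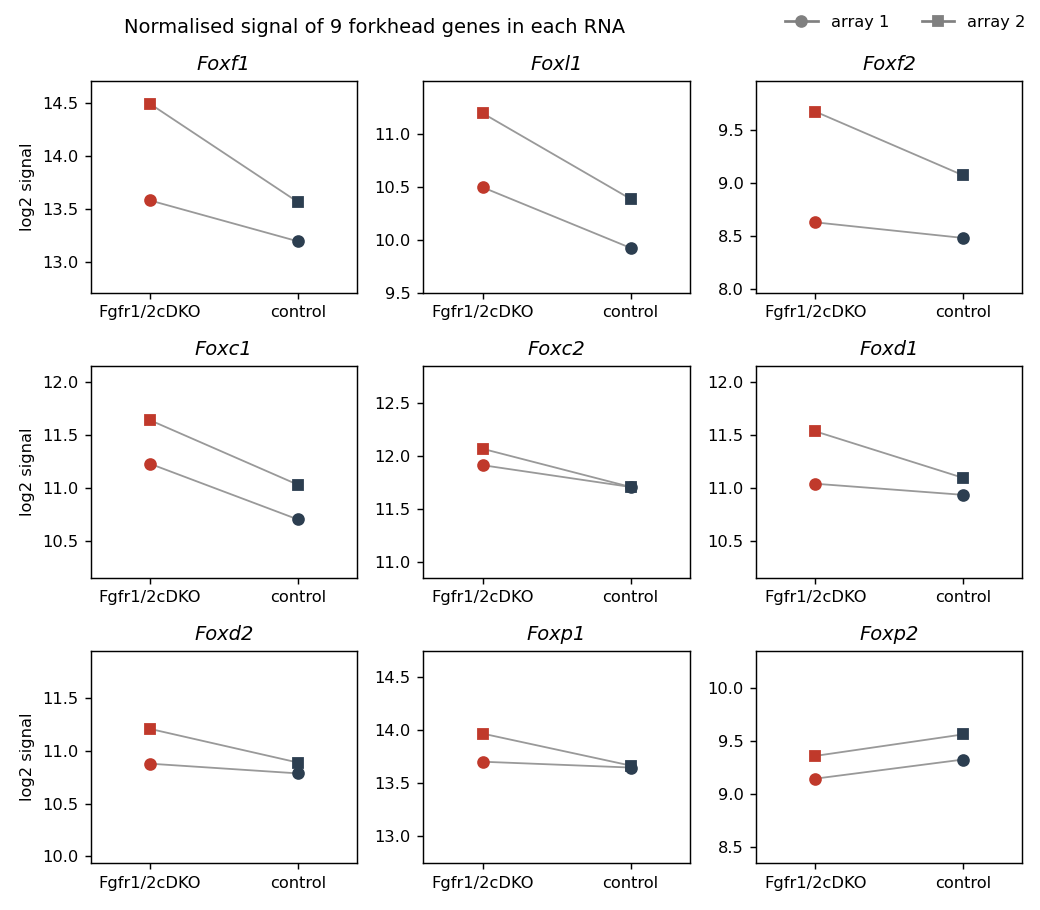
Normalised log2 signal of the brightest probe of each of the 9 genes, with Fgfr1/2cDKO RNA on the left (red) and control RNA on the right (dark), circles for array 1, squares for array 2, and a line joining the RNAs of 1 array. Lines slope down to the control side on both arrays for every gene but Foxp2, and each panel spans 2 log2 units on its own range.

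Foxc1 and Foxc2 are paralogues of early mesenchyme that are needed for the normal formation of kidney and ureter in mice and are also active in vessels. Foxc1 had signals of 11.23 and 11.64 in Fgfr1/2cDKO RNA, against 10.71 and 11.03 in control RNA, with no overlap. Its ratio was the most even of the 3 that rose, at 0.53 on array 1 and 0.61 on array 2, with a mean of 0.57 ± 0.06 (SD, n = 2; limma adjusted p = 0.0302), which is 1.48-fold. Its probe lies at chr13:31902423-31902482 (mm9). Foxc2 had signals of 11.92 and 12.07 in Fgfr1/2cDKO RNA, against 11.71 and 11.71 in control RNA. Those groups did not overlap either, but its ratio of 0.28 ± 0.11 (SD, n = 2; limma adjusted p = 0.173) did not pass.

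Since Foxc genes are active in vessels, the endothelial marker list is given beside them. Of its 10 genes, 7 were lower and none higher in Fgfr1/2cDKO RNA, with a median ratio of -0.55. The summed log2 signal of these markers was 13.23 and 13.45 in Fgfr1/2cDKO RNA, against 13.78 and 13.77 in control RNA, and all 10 were well above background in every RNA. Endothelial markers thus moved opposite to Foxc1, and their part in its ratio was not tested.

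Foxd1 marks the stromal progenitors of the kidney, and Foxd2 is expressed in kidney mesenchyme. Foxd1 had signals of 11.04 and 11.53 in Fgfr1/2cDKO RNA, against 10.93 and 11.09 in control RNA, and the groups overlapped. Its ratio was 0.27 ± 0.24 (SD, n = 2; limma adjusted p = 0.223). Foxd2 had signals of 10.88 and 11.21 in Fgfr1/2cDKO RNA, against 10.78 and 10.89 in control RNA, and these overlapped too. Its ratio was 0.20 ± 0.16 (SD, n = 2; limma adjusted p = 0.315). Neither passed the test, and in both the ratio on array 2 was over 3 times that on array 1, at 0.44 against 0.11 for Foxd1 and 0.32 against 0.09 for Foxd2. The 5 kidney stroma markers had a median ratio of 0.03. None passed in limma, with 1 higher and 1 lower at an unadjusted p below 0.05.

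Foxp1 and Foxp2 are repressors with a leucine zipper, known from lung, heart and brain. The brightest Foxp1 probe had signals of 13.70 and 13.97 in Fgfr1/2cDKO RNA, against 13.65 and 13.67 in control RNA, so its groups stood just apart. Its ratio was 0.18 ± 0.17 (SD, n = 2; limma adjusted p = 0.384). Under median centring in place of loess this ratio was -0.07, in a setting where the median of all genes was -0.14, so Foxp1 lay 0.07 above that median. The other 4 Foxp1 probes had mean ratios between -0.02 and 0.18, and 1 of them, at chr6:99102053-99102112 (mm9), was not well above background in any RNA. The split probe, which spans 4338 bases of the genome, had a ratio of -0.02 ± 0.06. None of the 4 Foxp1 probes tested passed.

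The brightest Foxp2 probe, at chr6:15391821-15391880 (mm9), was the only leading probe of the 9 genes with a ratio below 0. Its signals were 9.15 and 9.36 in Fgfr1/2cDKO RNA, against 9.33 and 9.56 in control RNA, with overlap. The ratio was -0.19 ± 0.02 (SD, n = 2; limma adjusted p = 0.315), nearly equal on both arrays at -0.18 and -0.20. The other Foxp2 probes did not share this, with ratios of -0.05 ± 0.13 and 0.16 ± 0.11.

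Across the 9 genes, both Fgfr1/2cDKO signals exceeded both control signals for 5, namely Foxf1, Foxl1, Foxc1, Foxc2 and Foxp1. The same held for 21.5% of all genes, and for none of the 9 in the opposite direction, against 23.5% of all genes. Among the other forkhead genes it held for 8 of 22 (36.4%), with 3 in the opposite direction. For all 9 genes the ratio was farther from 0 on array 2 than on array 1. That was so for 50.4% of all genes, for 54.6% of those above 0 on both arrays, and for 17 of the 22 other forkhead genes tested (77.3%). The SD between spots of 1 probe, from 0.01 to 0.18 with a median of 0.04 log2, was mostly smaller than these differences between arrays.

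**Figure D2:**
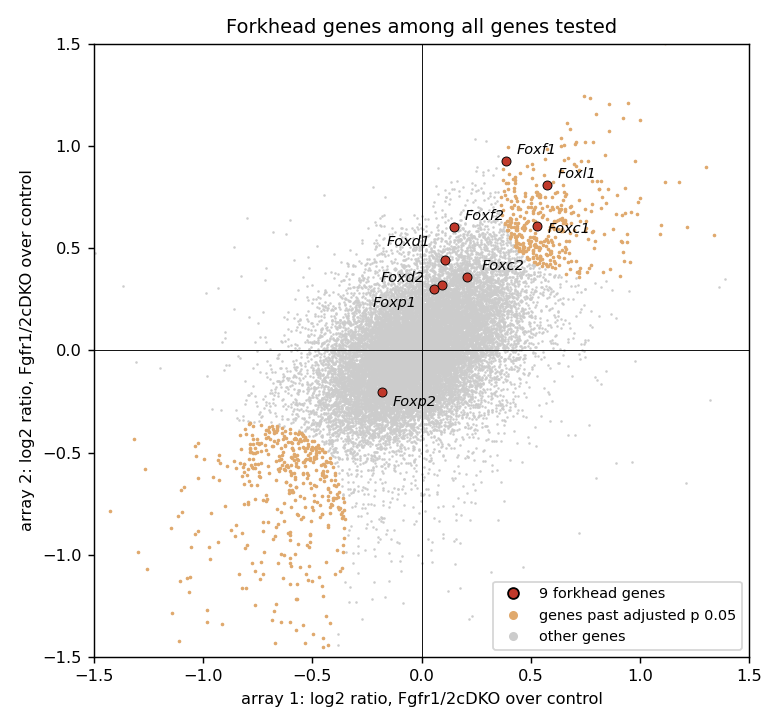
Log2 ratio of Fgfr1/2cDKO over control on array 1 (x axis) against array 2 (y axis) for all 22070 genes tested (grey), genes past an adjusted p of 0.05 (orange) and the 9 forkhead genes (red). Foxl1, Foxf1 and Foxc1 lie among the orange points at the upper right, Foxp2 lies at the lower left of 0, and 58 genes fall outside the axes at 1.5.

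Of these genes, 5 lie in a pair of forkhead clusters. On chromosome 8 the leading probes of Foxf1, Foxc2 and Foxl1 lie within 42.5 kb (mm9), with Foxc2 30.7 kb from Foxf1. The outer genes rose, and Foxc2 between them had a ratio of 0.28 that did not pass. On chromosome 13 the Foxc1 probe lies 179 kb from that of Foxf2, and Foxq1, an epithelial forkhead gene, lies 70.9 kb on its other side. Foxc1 rose, while Foxf2 had 0.38 and Foxq1 had 0.43 ± 0.45 (SD, n = 2; limma adjusted p = 0.148), with 0.11 on array 1 and 0.75 on array 2. Of 30 genes that lie inside these clusters or within 2 genes of any of the 9, 8 were tested. None passed (limma), with adjusted p from 0.0821 to 0.944. At an unadjusted p below 0.05, 3 were higher and none lower. Fendrr, the long noncoding RNA transcribed next to Foxf1, had a ratio of 0.21 ± 0.00 (SD, n = 2; limma adjusted p = 0.278). Mthfsd, in the same cluster, was the neighbour nearest to passing, at 0.38 ± 0.04 (SD, n = 2; limma adjusted p = 0.0821), or 0.17 with the mean over its probes. Foxq1, Fendrr and Mthfsd are named for their position, after their values were seen.

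**Figure D3:**
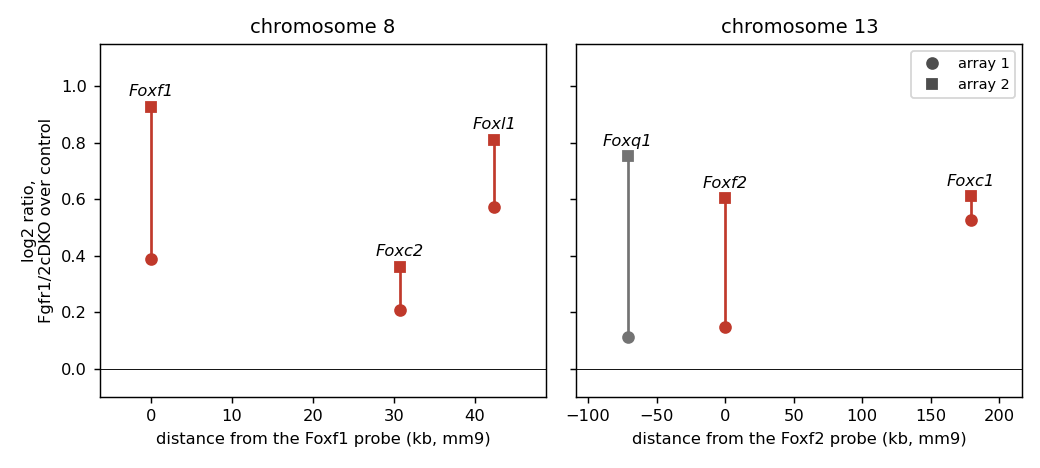
Log2 ratio of Fgfr1/2cDKO over control (y axis) against the distance in kb from the Foxf1 probe on chromosome 8 (left) or the Foxf2 probe on chromosome 13 (right), with circles for array 1, squares for array 2, and Foxq1 in grey. All 6 plotted genes lie above 0 on both arrays, and the square is above the circle for each.

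RefSeq start sites were matched for 5 of the 9 genes, Foxf2, Foxc1, Foxd1, Foxd2 and Foxp1, the last with 3 starts. The 250 bases before the start of the neighbours Foxc1, which rose, and Foxf2, which did not pass, are shown from RefSeq (GRCm38.p6), 5′ to 3′. Capitals mark the GC box GGGCGG and the CCAAT box CCAAT, on either strand.
Foxc1, chr13:31806396-31806645 (plus strand): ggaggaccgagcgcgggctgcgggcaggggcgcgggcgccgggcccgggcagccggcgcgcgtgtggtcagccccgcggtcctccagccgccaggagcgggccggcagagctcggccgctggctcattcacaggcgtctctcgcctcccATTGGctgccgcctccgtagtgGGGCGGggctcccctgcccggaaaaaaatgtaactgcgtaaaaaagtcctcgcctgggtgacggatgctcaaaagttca
Foxf2, chr13:31625566-31625815 (plus strand): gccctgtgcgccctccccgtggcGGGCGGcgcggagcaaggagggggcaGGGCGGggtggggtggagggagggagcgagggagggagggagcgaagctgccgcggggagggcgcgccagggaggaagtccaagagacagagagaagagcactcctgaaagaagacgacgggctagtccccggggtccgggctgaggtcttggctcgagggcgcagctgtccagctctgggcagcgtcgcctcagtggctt

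The Foxc1 window held 1 GC box and 1 CCAAT box, and its GC content was 70.8%. The Foxf2 window held 2 GC boxes and no CCAAT box, with a GC content of 71.6%, against a median of 52.4% over 32851 such windows. A GC box occurs in 32.7% of all windows and a CCAAT box in 33.8%. The forkhead core TGTTTAC, found in 3.17% of windows, the GLI core GACCACCCA, found in 0.225%, and the TATA box TATAAA, found in 12.4%, matched none of the windows of the 5 genes on either strand. A match is a description of these letters only.

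Of the 35 other forkhead genes on the array, 22 were tested, and 1 rose and none fell. It was Foxa1, a factor of endodermal and urothelial epithelium, with signals of 14.19 and 14.54 in Fgfr1/2cDKO RNA against 13.54 and 13.61 in control RNA. Its ratio was 0.79 ± 0.20 (SD, n = 2; limma adjusted p = 0.0188). The gene with the next smallest p was Foxo6, at 0.37 ± 0.03 (SD, n = 2; limma adjusted p = 0.0888). With the mean over its probes Foxo6 had a ratio of 0.15 (limma adjusted p = 0.440). The other forkhead genes had a median ratio of 0.14, lower than the 0.28 of the 9 genes, and the 21 that did not pass ranged from -0.36 to 0.43. Whether both groups differ was not tested.

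**Figure D4:**
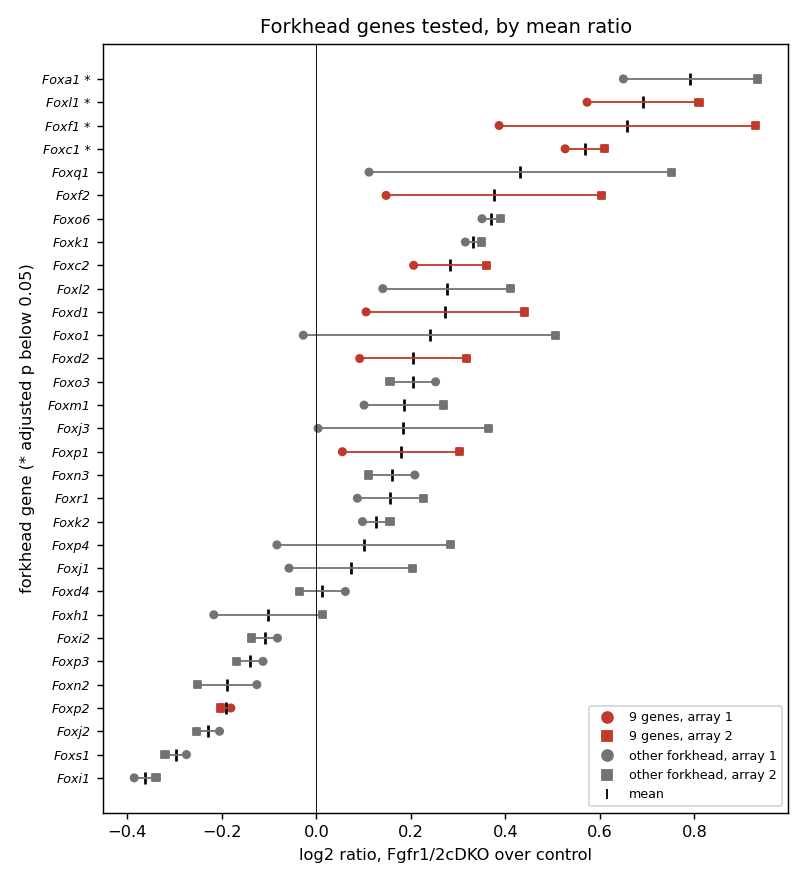
Log2 ratio of Fgfr1/2cDKO over control (x axis) for the 31 forkhead genes tested, ordered by mean, with circles for array 1, squares for array 2, a tick for the mean, the 9 genes in red and the others in grey. Stars mark an adjusted p below 0.05: Foxa1, Foxl1, Foxf1 and Foxc1 are the top 4.

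Of the 17 genes of the Hedgehog list, read beside Foxf1 and Foxl1, 2 passed as higher and none as lower, with a median of 0.05. The receptor Ptch1, itself induced by the pathway, rose by 0.82 ± 0.20 (SD, n = 2; limma adjusted p = 0.0177), or 0.60 with the mean over its probes (limma adjusted p = 0.0211). Gli1, the activator that is also a target of the pathway, rose by 0.57 ± 0.18 (SD, n = 2; limma adjusted p = 0.0378). Smo, the transducer of the pathway, had a ratio of the same size as Gli1 but opposite sign, -0.57 ± 0.35 (SD, n = 2; limma adjusted p = 0.0575), with -0.82 on array 1 and -0.32 on array 2. It passed as lower in 4 of 11 other settings, and with the mean over its probes its ratio was -0.11 (limma adjusted p = 0.649). Smo is named after its values were seen. The list of genes of the ureteric smooth muscle programme, where Foxf1 is known to act, had a median of 0.17, with 1 of 18 higher and none lower, and 6 of the 18 also stand in the marker lists below. Sox9, a transcription factor of ureteric mesenchyme before it forms muscle, rose by 0.73 ± 0.29 (SD, n = 2; limma adjusted p = 0.0247). Myocd, the coactivator that drives smooth muscle genes, had a ratio of 0.45 ± 0.01 (SD, n = 2; limma adjusted p = 0.0533), which passed in 5 of 11 other settings. Shh and Bmp4, placed on either side of Foxf1 in the opening, did not pass. Shh had a ratio of 0.18 ± 0.04 (SD, n = 2; limma adjusted p = 0.357). Bmp4 had one of -0.19 ± 0.14 (SD, n = 2; limma adjusted p = 0.340), below 0 on both arrays. Both are named after their values were seen.

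The pair of array ratios served to find the genes most like each member that rose, among 57 genes of these 3 lists. Nearest to Foxl1 was Foxa1 at a Euclidean distance of 0.15 log2, followed by Gli1 at 0.17 and Tbx3 at 0.28. Nearest to Foxf1 was Tbx3 at 0.10, followed by Gli1 at 0.23 and Foxa1 at 0.26. Nearest to Foxc1 was Gli1 at 0.12, followed by Myocd at 0.17 and Tshz3 at 0.19. Gli1 stood among the 3 nearest each time. The members that rose had ratios of similar size, so a shared neighbour is no separate result, and all genes were not searched. Tbx3 and Tshz3 did not pass (limma adjusted p = 0.0618 and 0.0590). Likeness over 2 arrays describes size and evenness of the ratios and no more.

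Marker lists of cell types are given beside the 9 genes, and many of them did not share their direction. Of 10 genes of fibroblasts and ureteric mesenchyme, none passed in limma, with 2 higher and 2 lower at an unadjusted p below 0.05. Their median was -0.06, with a summed log2 signal of 18.77 and 18.62 in Fgfr1/2cDKO RNA, against 18.86 and 18.84 in control RNA. Of 8 smooth muscle markers none passed in limma, and none had an unadjusted p below 0.05, with a median of -0.01. Urothelial and epithelial markers had 2 of 10 higher and a median of 0.40, with a summed log2 signal of 18.42 and 18.65 in Fgfr1/2cDKO RNA, against 18.07 and 18.08 in control RNA. Kidney tubule markers had 2 of 6 tested genes higher, Cdh16 and Umod, and Umod was not well above background in control RNA, so it was tested only through the group where it is bright. The list had a summed log2 signal of 11.68 and 10.63 in Fgfr1/2cDKO RNA, against 10.07 and 10.06 in control RNA. Adipocyte markers had 7 of 8 lower, with a summed log2 signal of 16.59 and 15.78 in Fgfr1/2cDKO RNA, against 17.17 and 17.05 in control RNA. Macrophage markers had 3 of 8 lower, with 16.22 and 15.61 in Fgfr1/2cDKO RNA, against 16.51 and 16.12 in control RNA. Neuronal and Schwann markers had 5 of 10 lower and a median of -0.50, but their summed log2 signal was 15.863 and 16.002 in Fgfr1/2cDKO RNA, against 15.4997 and 15.8458 in control RNA, so sum and median differ in sign. The part of these shifts in the forkhead ratios was not tested.

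The calls depended on the setting, as the plot of ratios by setting shows. Foxl1 and Foxc1 passed in 7 of 11 other settings that gave a test of their own, and Foxf1 in 5 of them, while all 3 kept ratios above 0 throughout. The settings in which they passed all kept loess within arrays, and most left the ratio itself unchanged, so they are not independent. None of the 3 passed with the scanner software's processed signals, with the authors' value table, under median centring, or with separate channels and no array term.

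**Figure D5:**
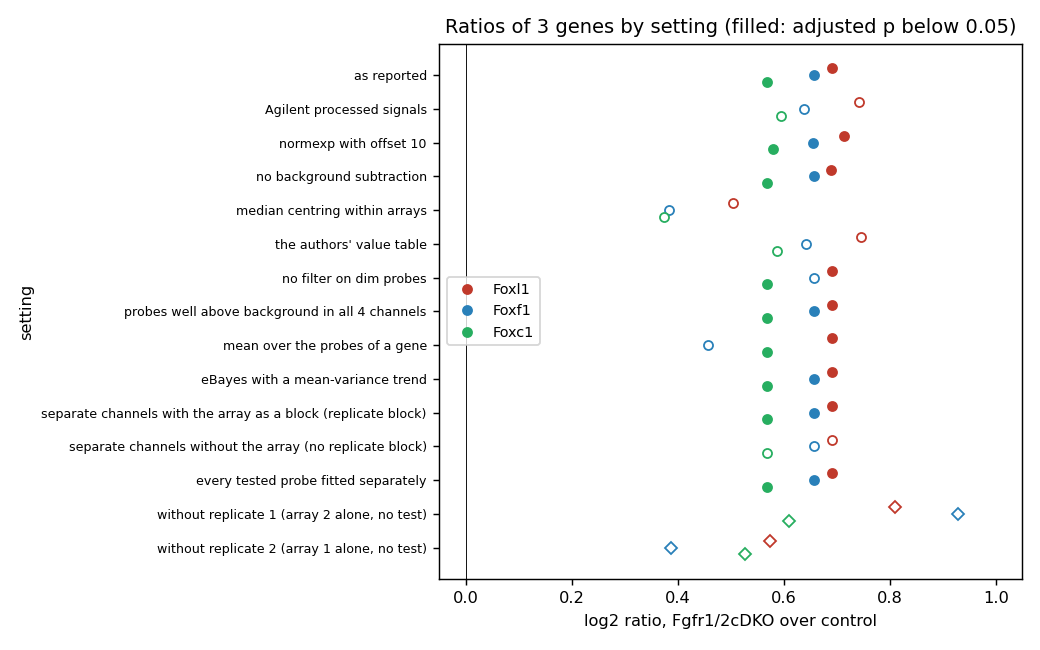
Log2 ratio of Fgfr1/2cDKO over control (x axis) of Foxl1 (red), Foxf1 (blue) and Foxc1 (green) under each setting (y axis). The fit with the array as a block equals the reported one by construction, filled points have an adjusted p below 0.05, and diamonds are single arrays with no test. All values lie between 0.37 and 0.93.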

How the data were processed

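Total RNA, 150 ng per labelling, was hybridised to 2 two-colour Agilent arrays with dyes swapped, per the labels. Scanner files made with Agilent Feature Extraction (version 10.7.3.1 in the submitters' processing notes) hold deposited intensity values, of which spot means and local background medians were used. The deposited log10 ratios, red over green, come from the software's processed signals, per the file headers. In the value table the authors deposited a score, read here as a signed fold change because it correlated with log2 red over green over probes, with r = 0.84 (array 1) and -0.85 (array 2). Its direction is thus mutant over control on both. Its centring is unknown, both arrays have a median of 1, and it holds nothing between -1 and 1. Probe positions are mm9, per the file headers.

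Background was corrected by normexp (offset 50) and ratios by loess within arrays with limma 3.58.1 in R 4.3.3, giving control spots weight 0 and dropping outlier spots (3.17% and 3.65%). The 4 spots of a probe were averaged. A probe was kept if more than 0.5 of its spots exceeded background clearly (the scanner's flag) on each array for either genotype (28915 of 39429), a gene was given by its brightest probe, and 22070 genes were fitted with lmFit and eBayes against 0, two-sided, with Benjamini-Hochberg adjustment. Separate signals are those after A-quantile normalisation. Between 70.3% and 78.3% of spots were well above background in each RNA. Probes were named through accessions (28328), symbols (3400) or the file (7701), with a RefSeq table of GRCm38.p6 used for names and gene order. The fit was run on ratios simulated from its own variance model, with no dye, sex label or normalisation step. That run does not check the calls made here. Named genes are the 9 members, called genes of the 3 other lists with the 2 of smallest p as a minimum, and the 3 genes nearest each called member. Members, lists and tests were chosen with earlier results of these data known. The closing section gives the effect of alternatives in background, normalisation, filter, probe choice, variance model, array term and threshold. The fit of every probe was added after seeing the data.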

Additional observations from a re-analysis of the deposited data

Results flagged for a closer look

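Of the 16 probes, 3 had ratios of opposite sign on the arrays, which differ in sex label, dye orientation and replicate together, and the difference was not tested. The split Foxp1 probe had -0.07 on array 1 and 0.02 on array 2, a difference of 0.0832 (array 2 minus array 1). Another Foxp1 probe, at chr6:98956679-98956738 (mm9), had -0.05 and 0.05, a difference of 0.0960. The split Foxp2 probe had 0.04 and -0.14, a difference of -0.181.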

How the results depend on the processing

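Counts of called genes were 3 (members), 1 (other forkhead), 2 (Hedgehog), 1 (smooth muscle programme) and 836 (all genes). The processed signals gave 0, 0, 0, 0 and 10, with 4621 genes at an unadjusted p below 0.05. Median centring gave 0, 0, 0, 0 and 0, with 5584 genes at an unadjusted p below 0.05, against 4955 as reported. Under it the median over all genes was -0.14, against -0.02 as reported, and relative to it Foxl1 lay at 0.65, Foxf1 at 0.52 and Foxc1 at 0.52. It also turned Foxp1 to -0.0726 and Tbx18 to -0.0200. The authors' value table gave 0, 0, 1, 0 and 170, with 4691 at an unadjusted p below 0.05. The 1 Hedgehog gene in it was Ptch1, and Gli1 did not pass there (limma adjusted p = 0.0870). Separate channels with no replicate block gave 0, 0, 0, 0 and 3, with 2392 at an unadjusted p below 0.05, while the fit with the array as a replicate block equals the reported fit by construction (836). An offset of 10 gave 4 (smooth muscle programme) and 1281 (all genes), and a mean-variance trend gave 6 and 1415. Both, with the fits of probes above background in all 4 channels and of every probe, gave 3 Hedgehog genes, 2 higher and Smo lower. Probes above background in all 4 channels, and the mean over probes, gave 4 for the smooth muscle programme. A threshold of 0.1 gave 3 (other forkhead), 4 (Hedgehog), 6 (smooth muscle programme) and 1907 (all genes). The fit of every probe gave 6 for the smooth muscle programme. The cause of these changes was not tested. Fgfr2 missed the threshold with processed signals (adjusted p = 0.0903), median centring (0.137), the value table (0.0644) and no replicate block (0.285). Foxf1 also missed the threshold without the filter (adjusted p = 0.0581). With 1 array left there is no test. Single arrays gave Foxf1 from 0.39 to 0.93, Foxl1 from 0.57 to 0.81 and Foxc1 from 0.53 to 0.61.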
